A study of Mus musculus with 15 samples.

Results

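Growth inside a Matrigel gel was compared with growth on a flat culture plate (2D) in mouse induced renal tubular epithelial cells (iRECs), gene by gene. iRECs are mouse fibroblasts converted into tubule-like epithelium by introduced transcription factors, Emx2, Hnf4a and Pax8 among them. In Matrigel, genes of the NRF2 antioxidant response, of drug conjugation and of DNA replication rose in part, together with a set of proximal tubule genes. Some genes of stress fibres, of matrix proteases, of collagens outside the basement membrane and of WNT and TGF-beta ligands fell. The genes described are the 13951 of 27179 in the authors' deposited table whose base mean, the mean normalized read count over the libraries fitted, was 10 or more.

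Both groups held 3 libraries each, 6 of the 15 libraries of the series. The cells of the Matrigel group were embedded in a Matrigel gel and those of the 2D group were plated without a gel. All grew in Renal Epithelial Growth Medium until day 7, carried the introduced factors and came from 1 cell line at passages 35, 48 and 53, with both cultures of a passage split from a shared pool. The 3 replicates are therefore passages of 1 line rather than animals, and p-values measure the spread between these cultures. The remaining libraries were cultures in fibrin, in collagen I and cultures printed in fibrin and collagen I.

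Matrigel is an extract of a mouse tumour rich in laminin, collagen IV, entactin and heparan sulfate proteoglycan, with growth factors bound to it. Epithelial cells embedded in it tend to form rounded, polarized structures, whereas cells on plastic spread out and form stress fibres. NRF2 is a transcription factor held down by KEAP1, and on oxidative or electrophilic stress it switches on genes for glutathione, thioredoxin and NADPH supply and for drug conjugation. In the kidney the proximal tubule is the main site of these enzymes, beside its work in reabsorbing solutes and activating and breaking down vitamin D.

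The deposited table gives 1 base mean and 1 log2 fold change, Matrigel over 2D, per gene, with no value for a single library, so neither the depth of a library nor the overlap of the groups can be given. A gene is said to have risen or fallen where the authors' adjusted p (DESeq2 Wald test, Benjamini-Hochberg) was under 0.05. Values after ± are standard errors from the authors' fit. Levels of single genes in Matrigel and in 2D are mean normalized reads per library. They were worked out here from the base means of all 4 of the authors' tables. The 10 highest genes held 4.09% of the summed base means.

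The label was checked against markers. In the authors' deposited table the base means were 20400 for Emx2, 10900 for Hnf4a and 20800 for Pax8, and none of these 3 passed (DESeq2; 1 of them, Pax8, had an unadjusted p under 0.05). The kidney cadherin Cdh16, at a base mean of 61400, and the amino acid transporter Slc6a18, at 37700, were abundant in the authors' deposited table. Defining transporters of the adult proximal tubule were near 0 there, with base means of 2.32 for the phosphate transporter Slc34a1, 1.78 for the glucose transporter Slc5a2 and 1.75 for the water channel Aqp1. Markers of other cell types were mostly at or near 0: base mean reached 10 for 2 of 8 podocyte, 4 of 11 endothelial, 4 of 11 immune, 5 of 10 fibroblast, 5 of 11 smooth muscle and pericyte, 2 of 7 adipocyte and 4 of 14 loop of Henle genes. Of 26 distal tubule and collecting duct genes 11 reached it, with a summed level of 22800 in Matrigel and 22600 in 2D. The largest base means in that list were 12800 for Wnk1, 5040 for Nedd4l and 3220 for Trpm7. Of its other members, Scnn1a was at 183 and Slc12a3 at 69.0, while Aqp2 (0.328), Aqp3 (2.41) and Calb1 (0) were at or near 0. The podocyte gene Nphs1, the endothelial gene Kdr, the T-cell gene Cd3e and the fibroblast gene Thy1 were at a base mean of 0 in the authors' deposited table. All summed levels here were worked out from the base mean and deposited fold change of the Matrigel comparison alone. For the immune list they were 492 in Matrigel and 908 in 2D. For the fibroblast list they were 237 in Matrigel and 343 in 2D, and for the endothelial list 1520 in Matrigel and 1170 in 2D. Most of the fibroblast sum was Col1a1 (144 in Matrigel, 243 in 2D), which did not pass. The median log2 fold change of the 5 fibroblast genes was 0.0758 as deposited and 2.67 by the implied levels. The sum was lower in Matrigel while both medians were above 0, so the direction of the fibroblast signal depends on the summary taken. The size of the median depends on how levels are worked out. In the authors' deposited table Col1a1 (-0.73 ± 0.31) and Pdgfra (-0.61 ± 0.32) were lower. Col1a2 (0.08 ± 0.10), Col3a1 (0.08 ± 0.10) and Lum (0.54 ± 0.25) were higher there, and none of the 5 passed. The part of other cell types in the results was not tested. In bulk RNA of this kind, fewer cells of a type and less RNA per cell cannot be told apart.

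In all, 928 of the 13951 genes changed in the authors' deposited table, 6.65% of those tested. Of these, 589 were higher in Matrigel (4.22%) and 339 were lower (2.43%). Changes by 1 log2 unit or beyond were seen for 323, with 189 higher and 134 lower. The median log2 fold change of all genes was -0.00239, with a median standard error of 0.203, so the changes lay on both sides of a centre near 0. The smallest absolute log2 fold change that passed was 0.482. The middle part of the Wald statistics was 1.27 times as wide as the theoretical null. With this empirical null 373 genes passed, 239 higher and 134 lower. Counts within functional groups are to be read beside the shares of 4.22% risen and 2.43% fallen. In a small group, a count of few or none cannot be told from those shares.

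**Figure D1:**
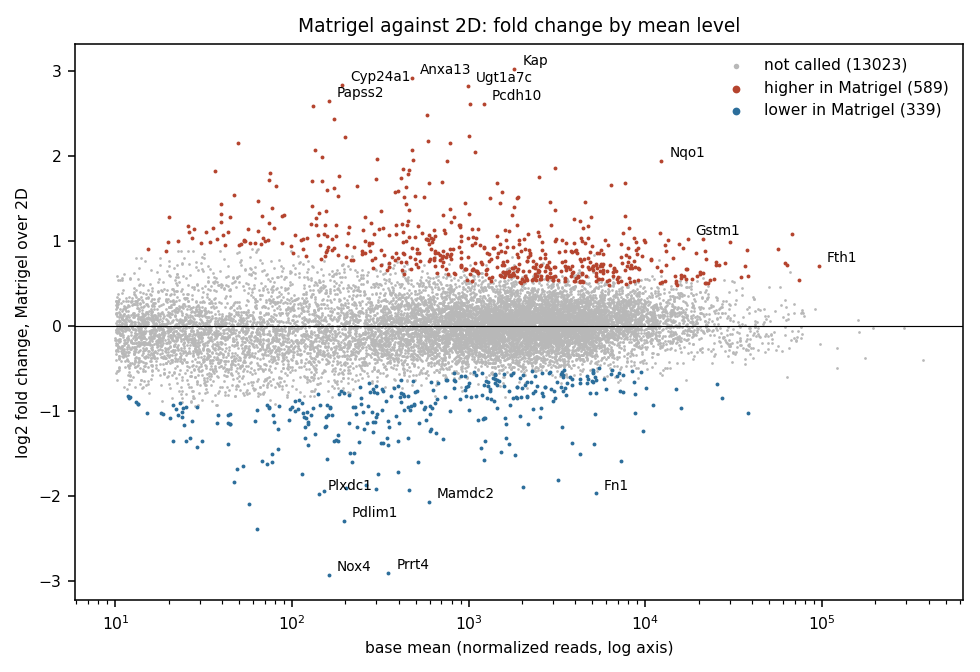
Log2 fold change of Matrigel over 2D (vertical axis) against base mean in normalized reads (log axis) for the 13951 genes, from the authors' deposited table. Red points are the 589 genes higher in Matrigel, blue points the 339 lower and grey points those that did not pass, and the named genes include Kap at 3.02 and Nox4 at -2.93.

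The genes with the largest changes came from several functions. Kap, the kidney androgen-regulated protein, had an implied level of 3350 in Matrigel and 269 in 2D. Anxa13, an epithelial annexin, stood at 874 in Matrigel and 84.3 in 2D. The authors' deposited table had Kap at log2 3.02 ± 0.26, while the log2 ratio of its implied levels was 3.64. Whether the fit shrank fold changes was not stated in the sources. Cell contact genes were among the genes that rose most: the authors' deposited table had the gap junction connexin Gjb1 at log2 2.61 ± 0.24 and the protocadherin Pcdh10 at 2.61 ± 0.22. Gjb1 reached 1810 in Matrigel, against 228 in 2D, and Pcdh10 reached 2080 in Matrigel, against 346 in 2D. The monocarboxylate transporter family member Slc16a6 (2.49 ± 0.24), the gasdermin Gsdma (2.43 ± 0.28), the lens crystallin Crybb1 (2.23 ± 0.31) and the neurofilament heavy chain Nefh (2.17 ± 0.24) also rose in the authors' deposited table, as did Gimd1 (2.58 ± 0.31). These genes share no single known pathway.

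Nox4, an NADPH oxidase that makes hydrogen peroxide and is abundant in the kidney, had an implied level of 49.3 in Matrigel and 273 in 2D. The authors' deposited table had it at log2 -2.93 ± 0.28 and the proline-rich membrane protein Prrt4 at -2.90 ± 0.24. Fibronectin (Fn1), the adhesive glycoprotein that cells deposit on plastic, had a level of 1940 in Matrigel and 8490 in 2D. Fn1 was the most abundant of the 15 strongest falls. The others among them included the tight junction claudin Cldn1 (751 in Matrigel, 3290 in 2D), the secreted glycoprotein Fstl1 (1350 in Matrigel, 5030 in 2D), the immune-inhibitory surface protein Cd200 (120 in Matrigel, 477 in 2D) and the complement component Hc (55.3 in Matrigel, 248 in 2D). Ostn, a secreted peptide gene, and the glycogen-binding Stbd1 fell by 1.74 each on the log2 scale in the authors' deposited table. Jakmip1 fell by 1.93 there. Other gene models, Gm1043 and an entry also named Jakmip1, cover 75.7% of its annotated exon bases, so how uncertain its reads are cannot be told.

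**Figure D2:**
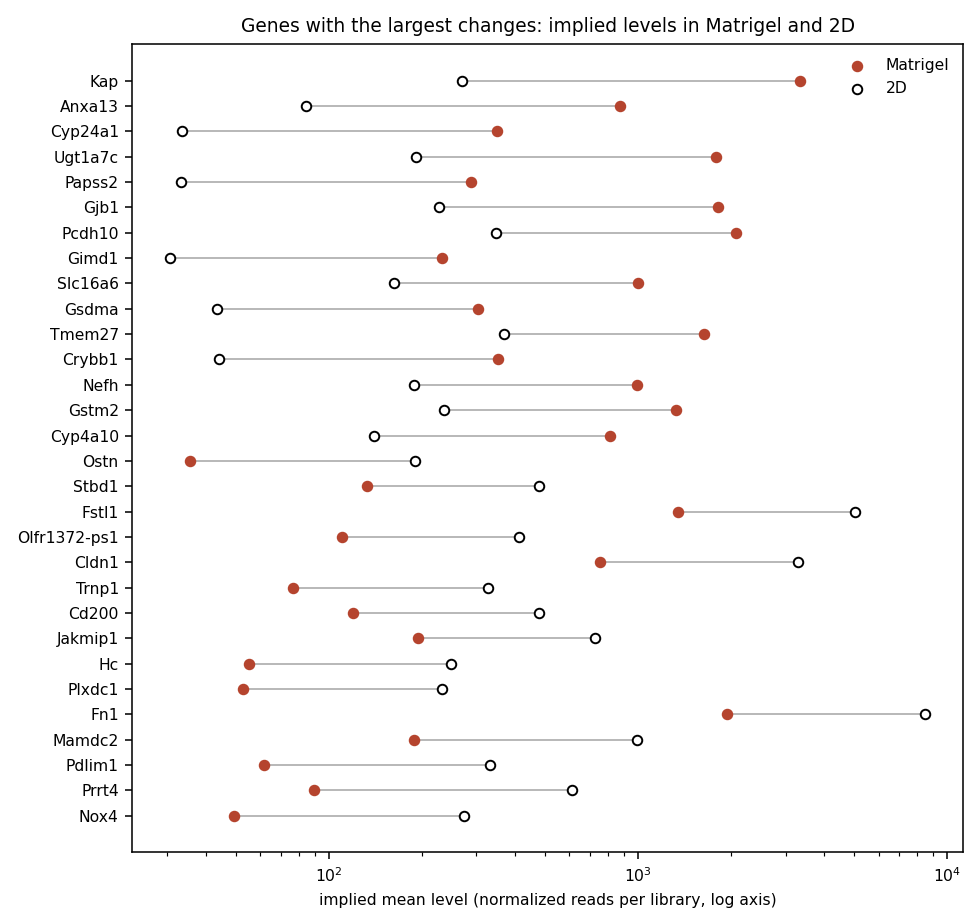
Implied mean level in normalized reads per library (log axis) in Matrigel (filled) and 2D (open) for the 15 genes with the highest and the 15 with the lowest log2 fold change among changed genes (base mean at least 100). Kap lies at 3350 in Matrigel and 269 in 2D, and Nox4 at 49.3 in Matrigel and 273 in 2D.

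Among genes of base mean 10 to 100, where the median standard error was 0.308, 49 rose and 56 fell. The 5 highest in the authors' deposited table were 2610528J11Rik (log2 2.15 ± 0.32), Tprg (1.82 ± 0.32), the small RNA methyltransferase Henmt1 (1.80 ± 0.32), the small GTPase exchange factor Ngef (1.71 ± 0.31) and Aoah, which detoxifies bacterial lipopolysaccharide (1.65 ± 0.31). The 5 lowest there were the fibril-associated collagen Col12a1 (-2.38 ± 0.31), the receptor kinase Kit (-2.09 ± 0.32), Slfn5 (-1.83 ± 0.32), the ephrin receptor Ephb6 (-1.68 ± 0.31) and the matrix protein Fbln2 (-1.64 ± 0.31). At the other end, the most abundant changed gene was Fth1, the ferritin heavy chain that stores iron, with a level of 117000 in Matrigel and 73700 in 2D. Thioredoxin reductase Txnrd1 was at 78600 in Matrigel and 47800 in 2D and the laminin-binding integrin subunit Itga3 at 78100 in Matrigel and 44800 in 2D. Of the 15 most abundant changed genes, 13 rose, among them tissue plasminogen activator Plat (log2 0.90 ± 0.19), A130040M12Rik (1.09 ± 0.20), Tmem252 (0.99 ± 0.19), Idh1, a cytosolic source of NADPH (0.74 ± 0.21), the calcium-binding S100a6 (0.70 ± 0.18), profilin Pfn1 (0.58 ± 0.17) and beta-actin Actb (0.54 ± 0.18) in the authors' deposited table. The 2 that fell there were the phospholipid flippase Atp11a (-1.02 ± 0.19) and the imprinted zinc finger gene Peg3 (-0.84 ± 0.21).

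**Figure D3:**
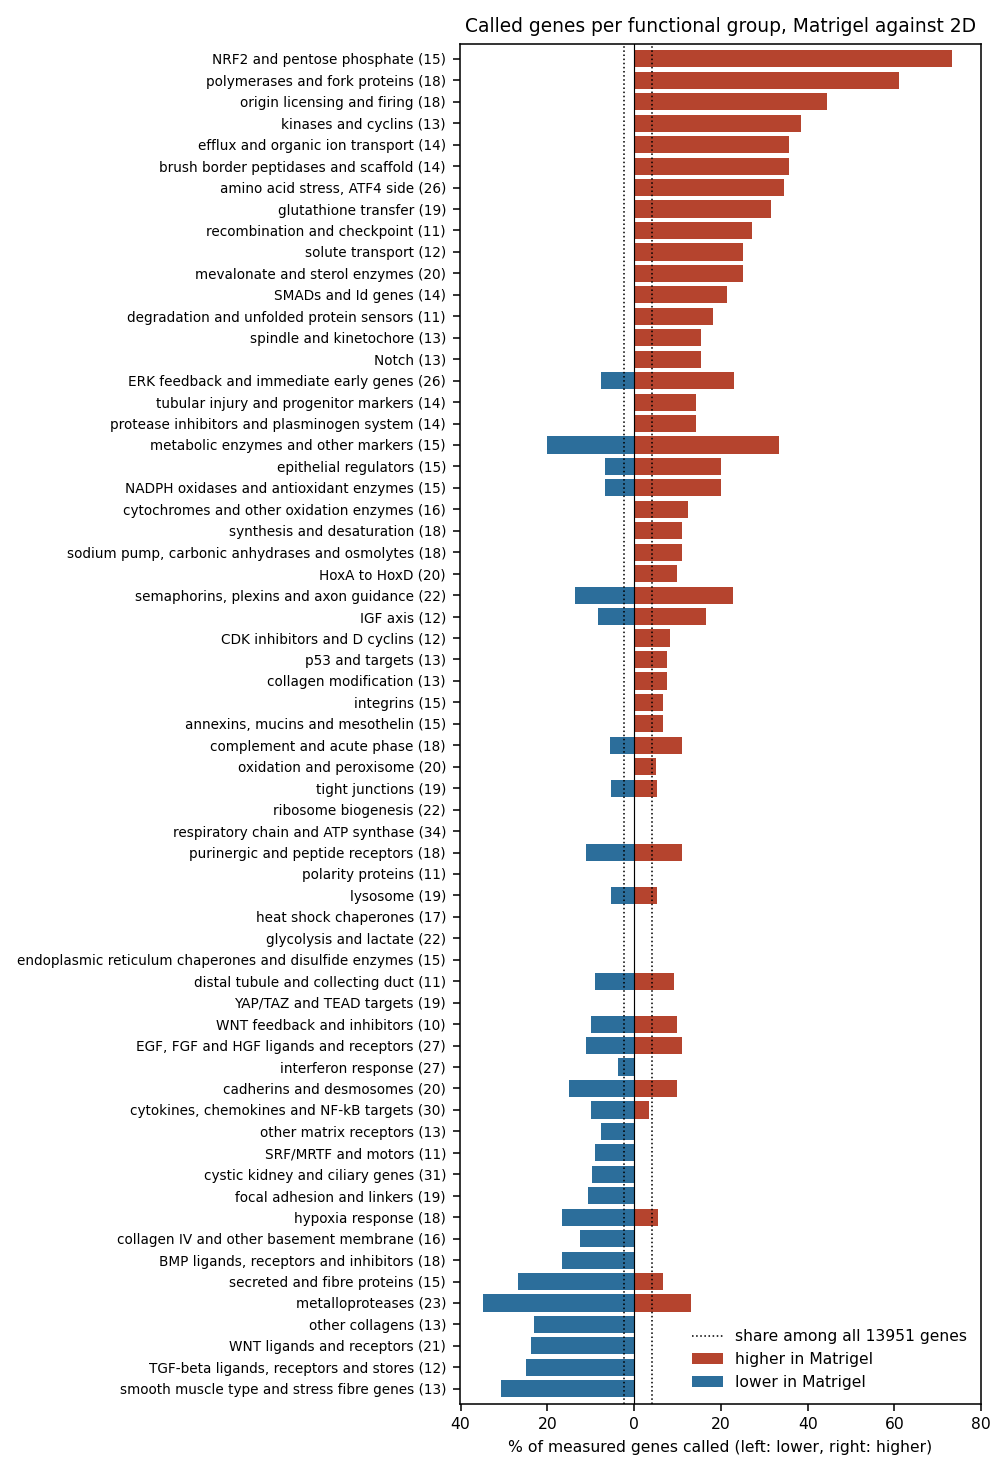
Percent of measured genes that rose (red, right) or fell (blue, left) in Matrigel against 2D in each functional group of 10 or more measured genes (number in brackets), with dotted lines at the share among all 13951 genes, 4.22% higher and 2.43% lower. NRF2 and pentose phosphate genes are at the top, with 11 of 15 risen, and stress fibre genes at the bottom, with 4 of 13 fallen.

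NRF2 target genes and the pentose phosphate pathway had the highest share of risen members among the groups shown in the plot of functional groups. Of 15 such genes, 11 rose and none fell, with a median log2 fold change of 0.719, against 4.22% risen and a median of -0.00239 over all genes. Nqo1, the quinone reductase that is a textbook NRF2 target, had a level of 19500 in Matrigel and 5060 in 2D, and the authors' deposited table gave a change of log2 1.94 ± 0.18 (adjusted p = 2.5e-24). It lies on chromosome 8 from 107388225 to 107403205 (GRCm38). Glutathione reductase Gsr, which regenerates reduced glutathione, was at 28300 in Matrigel and 13900 in 2D. G6pdx, the entry enzyme of the pentose phosphate pathway and a main source of NADPH, was at 13200 in Matrigel and 6560 in 2D. The stress-induced Osgin1 was at 6130 in Matrigel and 2940 in 2D. These 3 changed by log2 1.03 ± 0.16, 1.02 ± 0.16 and 0.98 ± 0.22 in the authors' deposited table.

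The other 7 risen genes covered the remaining steps of the same chemistry. Sulfiredoxin Srxn1, which repairs overoxidized peroxiredoxins, rose by log2 0.86 ± 0.17, and the subunits of the rate-limiting enzyme of glutathione synthesis, Gclm and Gclc, rose by 0.80 ± 0.17 and 0.72 ± 0.22 in the authors' deposited table. Txnrd1, which keeps thioredoxin reduced, was at 0.72 ± 0.19 in the authors' deposited table. The pentose phosphate enzymes Pgd (0.69 ± 0.17), Tkt (0.56 ± 0.17) and Taldo1 (0.56 ± 0.17) completed the set in the authors' deposited table. Neither the factor nor its inhibitor passed at the RNA level: Nfe2l2, the gene of NRF2, was at log2 0.23 ± 0.16 and Keap1 at 0.21 ± 0.17 in the authors' deposited table. Haem oxygenase Hmox1 (0.38 ± 0.20) and the cystine transporter Slc7a11 (0.72 ± 0.28) did not pass either in the authors' deposited table. Under the empirical null 6 of the 11 passed.

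NRF2 binds the antioxidant response element, searched here as TGACNNNGC on both strands in the 300 bases from 250 before to 50 after each gene start (RefSeq, GRCm38.p6). A window was at hand for 10722 of the 13951 genes, and 17.0% of these windows held the motif. Among the risen genes the share was 17.6% and among the fallen genes 19.8%. Of the 15 NRF2 and pentose phosphate genes, 12 had a window and 6 of those held a match. A match of so few letters is a description of the window and not a site of binding. The windows of G6pdx (chrX:74428831-74429130, minus strand), Srxn1 (chr2:152105274-152105573, plus strand), Gclm (chr3:122245307-122245606, plus strand) and Txnrd1 (chr10:82858956-82859255, plus strand) are shown because these are the risen genes of largest change that hold a match. They are written 5′ to 3′ on the gene's strand, with the matching bases in capitals, in either orientation, starting at -57, 28, -134 and -92 relative to the gene start.
G6pdx: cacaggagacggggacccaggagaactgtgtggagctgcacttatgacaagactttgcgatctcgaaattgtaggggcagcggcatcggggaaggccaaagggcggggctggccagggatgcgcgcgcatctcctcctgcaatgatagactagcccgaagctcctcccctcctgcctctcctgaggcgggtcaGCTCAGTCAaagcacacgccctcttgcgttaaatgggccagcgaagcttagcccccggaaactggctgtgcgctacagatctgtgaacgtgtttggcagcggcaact
Srxn1: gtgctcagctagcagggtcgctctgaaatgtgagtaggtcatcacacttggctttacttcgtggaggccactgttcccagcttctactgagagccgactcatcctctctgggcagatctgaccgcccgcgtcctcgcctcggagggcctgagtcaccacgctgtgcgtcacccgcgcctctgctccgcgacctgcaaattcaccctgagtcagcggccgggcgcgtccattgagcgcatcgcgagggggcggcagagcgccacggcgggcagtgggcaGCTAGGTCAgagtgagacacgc
Gclm: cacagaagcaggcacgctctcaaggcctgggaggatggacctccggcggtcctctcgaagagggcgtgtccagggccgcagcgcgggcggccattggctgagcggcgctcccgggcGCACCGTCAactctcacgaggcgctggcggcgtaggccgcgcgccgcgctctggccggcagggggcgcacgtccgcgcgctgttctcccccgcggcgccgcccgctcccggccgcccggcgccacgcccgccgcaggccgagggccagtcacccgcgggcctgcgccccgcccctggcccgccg
Txnrd1: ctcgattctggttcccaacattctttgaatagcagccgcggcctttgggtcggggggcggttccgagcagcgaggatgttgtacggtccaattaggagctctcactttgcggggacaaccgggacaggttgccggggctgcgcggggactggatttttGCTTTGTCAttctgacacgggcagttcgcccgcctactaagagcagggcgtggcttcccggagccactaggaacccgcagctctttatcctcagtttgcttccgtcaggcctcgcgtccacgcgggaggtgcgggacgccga

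Drug conjugation genes rose beside them. Glutathione S-transferases, which attach glutathione to reactive compounds, had 6 of 19 risen and none fallen, with a median log2 fold change of 0.406. Gstm2 led them at a level of 1330 in Matrigel and 235 in 2D, and Gsta4, which clears the lipid peroxidation product hydroxynonenal, was at 1170 in Matrigel and 324 in 2D. The authors' deposited table had Gstm2 at log2 2.16 ± 0.22, Gsta4 at 1.94 ± 0.19, Gsta3 at 1.08 ± 0.30 and Gstm1 at 1.03 ± 0.18. Gstm1 was the most abundant of the 4, with 23500 in Matrigel and 11100 in 2D. Gstt1 (0.72 ± 0.22) and Gstp1 (0.55 ± 0.18) rose as well in the authors' deposited table, while the abundant Gsto1 (-0.05 ± 0.17) and Gstt2 (0.15 ± 0.24) did not pass. Genes of the Gstm and Gsta families are close copies of each other, so the split of reads within each family is uncertain.

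Glucuronidation and sulfation, the other main routes of conjugation, had 4 of 8 and 5 of 8 genes risen, and none fallen in either. The glucuronosyltransferase Ugt1a7c was at 1790 in Matrigel and 191 in 2D. Its last exons are shared with the other genes of the Ugt1a locus, which overlap 54.6% of its exon bases, so its reads are uncertain and those of Ugt1a6a (log2 0.90 ± 0.30 in the authors' deposited table) more so. Ugdh, which makes the sugar donor for glucuronidation, rose by 0.82 ± 0.24 and Ugt2b34 by 0.77 ± 0.26 in the authors' deposited table. The sulfate donor is made by Papss2 and Papss1, which rose by log2 2.65 ± 0.29 and 0.62 ± 0.16 in the authors' deposited table. Papss2 was at 288 in Matrigel and 33.3 in 2D. The sulfotransferases Sult1c2 (0.85 ± 0.24) and Sult2b1 (0.75 ± 0.23) and the sulfate exchanger Slc26a1 (0.65 ± 0.21) rose with them in the authors' deposited table. Donor supply, transfer and transport of sulfate each had risen members. The empirical null left 1 of the 4 glucuronidation genes, 1 of the 5 sulfation genes and 3 of the 6 glutathione transferases.

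**Figure D4:**
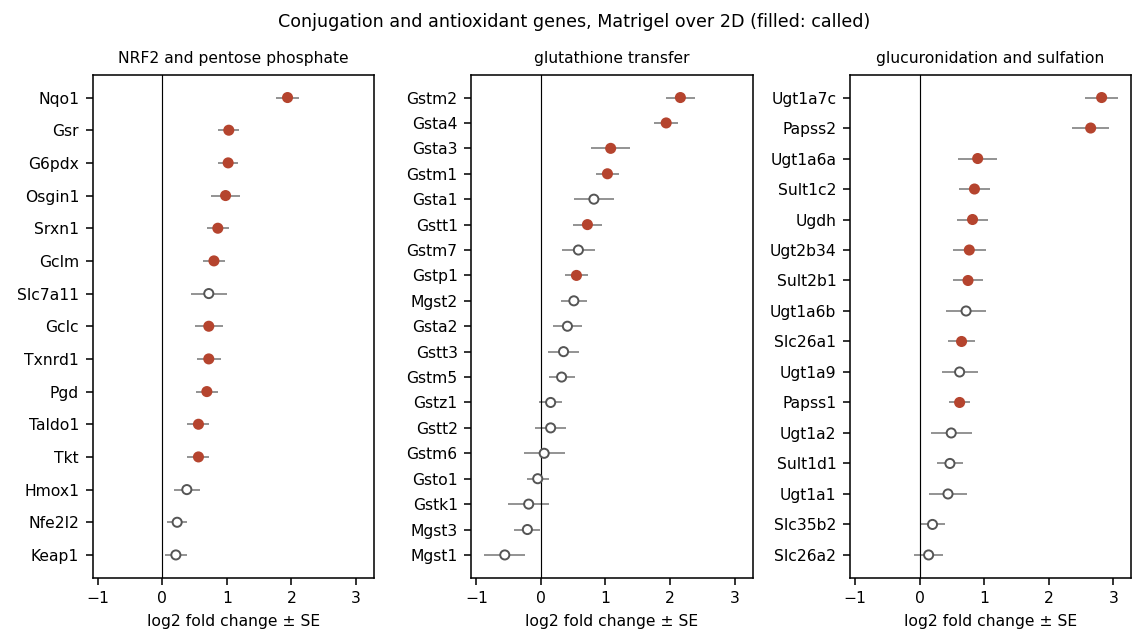
Log2 fold change of Matrigel over 2D with its standard error for every measured gene of 3 groups: NRF2 and pentose phosphate, glutathione transfer, and glucuronidation with sulfation. Filled points passed the authors' test; the highest are Ugt1a7c at 2.82, Papss2 at 2.65 and Gstm2 at 2.16, and no filled point lies below 0.

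Drug efflux and oxidation genes were counted separately. Of 14 genes of efflux and organic ion transport, 5 rose and none fell: the organic anion and thyroid hormone transporter Slco4a1 (1.05 ± 0.21), the proton-coupled drug exporter Slc47a1 (0.88 ± 0.20), and the ATP-driven exporters Abcc1 (0.86 ± 0.20), Abcg2 (0.58 ± 0.19) and Abcc4 (0.52 ± 0.16) in the authors' deposited table. Among 16 cytochrome and other oxidation genes, 2 rose, the fatty acid hydroxylase Cyp4a10 (2.07 ± 0.26) and the carbonyl reductase Cbr3 (0.86 ± 0.22) in the authors' deposited table. The electron donor of the cytochromes, Por, did not pass (0.53 ± 0.20 in the authors' deposited table). Other antioxidant genes that rose there were the glutathione peroxidase Gpx2 (1.28 ± 0.30) and peroxiredoxin Prdx1 (0.72 ± 0.21). Txnip (1.03 ± 0.29), an inhibitor of thioredoxin rather than an antioxidant enzyme, rose there too. Gpx2 was scarce, with a base mean of 20.1, and its implied levels of 36.5 in Matrigel and 3.76 in 2D lie further apart than that deposited change.

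Vitamin D genes and the tubule's own functions were next. Cyp24a1, the mitochondrial enzyme that inactivates vitamin D and a classical target of its receptor, had a level of 350 in Matrigel and 33.4 in 2D. The receptor gene Vdr was at 7190 in Matrigel and 4310 in 2D, a change of log2 0.66 ± 0.18 in the authors' deposited table. The activating enzyme Cyp27b1 (-0.55 ± 0.31) and the partner receptor Rxra (0.43 ± 0.17) did not pass in the authors' deposited table. Of the 7 measured genes of this list, 2 rose and none fell.

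Of 56 proximal tubule genes, 17 rose and 4 fell, with a median log2 fold change of 0.319. Brush border genes had 5 of 14 risen and none fallen: Tmem27, the partner of brush border amino acid transporters (1630 in Matrigel, 369 in 2D), the scaffold Pdzk1 (4130 in Matrigel, 1700 in 2D), the peptidase Ace (10200 in Matrigel, 5680 in 2D), the microvillar motor Myo7b (2290 in Matrigel, 1360 in 2D) and the scaffold Slc9a3r1 (22000 in Matrigel, 14800 in 2D). Antisense gene models cover 47.6% of the exon bases of Pdzk1. The core microvillus protein villin, Vil1, did not pass (log2 0.41 ± 0.16 in the authors' deposited table). Solute transporters had 3 of 12 risen: the glucose transporter Slc2a2, which exports glucose across the basolateral membrane (503 in Matrigel, 105 in 2D), the bicarbonate cotransporter Slc4a4 (1220 in Matrigel, 581 in 2D) and Slc6a18 (49700 in Matrigel, 25600 in 2D). The endocytic receptors cubilin (Cubn) and megalin (Lrp2), which recover filtered protein, rose by 0.73 ± 0.19 and 0.56 ± 0.16 in the authors' deposited table. Their adaptor Dab2 did not pass (0.02 ± 0.19 in the authors' deposited table).

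Metabolic enzymes and other markers of the proximal tubule moved in both directions. Besides Kap, those that rose included the peroxisomal hydroxyacid oxidase Hao2 (249 in Matrigel, 48.1 in 2D), the glycine conjugating enzyme Glyat (4070 in Matrigel, 2070 in 2D) and the fatty acid transporter Slc27a2 (6390 in Matrigel, 3730 in 2D). Those that fell were the arginine synthesis enzyme Ass1 (697 in Matrigel, 1780 in 2D), the kidney cadherin Cdh6 (1280 in Matrigel, 3050 in 2D) and the creatine synthesis enzyme Gatm (8.63 in Matrigel, 37.5 in 2D). Among transcription factors of the tubule, Cux1 rose by log2 0.49 ± 0.16, and Lhx1 fell by 0.78 in the authors' deposited table. The empirical null left 9 of the 17 risen and 2 of the 4 fallen genes.

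DNA replication genes formed the group with the most risen members, 37 of 71 with none fallen and a median log2 fold change of 0.598. Of 18 polymerase and fork genes 11 rose, led by the clamp loader subunit Rfc5 (log2 0.93 ± 0.21), the single-strand binding protein Rpa2 (0.90 ± 0.21), the fork protector Clspn (0.81 ± 0.20) and the polymerase subunit Pole2 (0.80 ± 0.23) in the authors' deposited table. Origin licensing and firing had 8 of 18 risen, with Cdc6 (743 in Matrigel, 402 in 2D), Mcm5 (6480 in Matrigel, 3490 in 2D), Mcm6 (4890 in Matrigel, 2760 in 2D) and Gins1 (537 in Matrigel, 317 in 2D) at its head. Nucleotide supply had 6 of 8 risen, among them the ribonucleotide reductase subunit Rrm2 (6610 in Matrigel, 2510 in 2D) and the dUTPase Dut (4530 in Matrigel, 2460 in 2D). Of 8 chromatin assembly genes, 5 rose, including the histone chaperone Asf1b (0.91 ± 0.22), the methylation factor Uhrf1 (0.85 ± 0.19) and the maintenance methyltransferase Dnmt1 (0.63 ± 0.18) in the authors' deposited table. E2F2, E2F7 and E2F8, transcription factors of S phase, rose with cyclin E1 (Ccne1): the authors' deposited table had E2f2 at 1.16 ± 0.24, E2f8 at 1.13 ± 0.26, E2f7 at 0.86 ± 0.27 and Ccne1 at 0.79 ± 0.23.

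Mitotic genes had a smaller share, 10 of 41 risen and none fallen, with a median of 0.498. Kinases and cyclins of mitosis held 5 of them, with Aurkb (2140 in Matrigel, 1100 in 2D), Plk1 (2820 in Matrigel, 1610 in 2D), Ccnb1 (4360 in Matrigel, 2750 in 2D) and Cdk1 (3440 in Matrigel, 2210 in 2D). The widely used proliferation marker Mki67 did not pass, at log2 0.43 ± 0.28 in the authors' deposited table, and its implied levels, 2370 in Matrigel and 2590 in 2D, ran the other way. Topoisomerase Top2a did not pass either (0.40 ± 0.19 in the authors' deposited table). Cell cycle brakes and D cyclins had 2 of 25 risen and none fallen, against 4.22% risen and 2.43% fallen over all genes. The CDK inhibitor Cdkn1a was at -0.16 ± 0.19 and p53 (Trp53) at 0.24 ± 0.18 in the authors' deposited table, while cyclin D1 (Ccnd1) rose by 0.72 ± 0.23. Under the empirical null, 13 of the 37 replication and 3 of the 10 mitotic genes passed.

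The E2F site was searched as TTTCCCGC or TTTGGCGC, on both strands, in the same windows. It was in 3.39% of all 10722 windows, in 4.51% of those of risen genes and in 2.43% of those of fallen genes. Of the 59 windows of replication genes, 18 held it (30.5%), and of the 32 windows of the risen ones, 10 did. The windows of Cdc6 (chr11:98907901-98908200, plus strand), Mcm5 (chr8:75109259-75109558, plus strand) and Mcm6 (chr1:128359656-128359955, minus strand), the origin licensing genes with the largest changes, are given with the matching bases in capitals. The match starts at -138 in Cdc6 and -149 in Mcm5, and Mcm6 has 2 matches, at -110 and -47.
Cdc6: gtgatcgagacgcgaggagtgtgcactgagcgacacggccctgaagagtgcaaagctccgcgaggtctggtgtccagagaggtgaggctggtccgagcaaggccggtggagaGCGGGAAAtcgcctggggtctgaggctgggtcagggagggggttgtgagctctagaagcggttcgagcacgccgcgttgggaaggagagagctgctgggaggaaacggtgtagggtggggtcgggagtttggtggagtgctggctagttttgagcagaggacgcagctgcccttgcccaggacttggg
Mcm5: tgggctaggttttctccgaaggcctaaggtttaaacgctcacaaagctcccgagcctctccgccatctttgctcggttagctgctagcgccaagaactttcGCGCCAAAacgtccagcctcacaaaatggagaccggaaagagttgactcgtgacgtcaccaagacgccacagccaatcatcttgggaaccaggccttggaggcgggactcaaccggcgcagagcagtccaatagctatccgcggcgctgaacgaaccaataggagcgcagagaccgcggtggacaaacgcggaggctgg
Mcm6: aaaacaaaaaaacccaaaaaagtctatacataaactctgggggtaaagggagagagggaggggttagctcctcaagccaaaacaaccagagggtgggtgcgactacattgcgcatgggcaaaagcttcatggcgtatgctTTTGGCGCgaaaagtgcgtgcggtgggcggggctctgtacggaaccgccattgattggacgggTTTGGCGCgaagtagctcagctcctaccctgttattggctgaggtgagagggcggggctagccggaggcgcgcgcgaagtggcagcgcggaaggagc

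Sterol genes rose in part. Of 20 enzymes of the mevalonate and sterol pathway, 5 rose and none fell, with a median of 0.461. Those that rose included Idi1 (981 in Matrigel, 450 in 2D), Nsdhl (2550 in Matrigel, 1380 in 2D), Hmgcs1 (10200 in Matrigel, 6430 in 2D) and Fdft1 (5300 in Matrigel, 3490 in 2D). The sterol sensor Insig1 (0.71 ± 0.18) rose in the authors' deposited table, which has the master regulator Srebf2 at 0.32 ± 0.16, not passing. The cholesterol exporter Abca1, an LXR target, fell by 1.57 on the log2 scale, with a level of 577 in Matrigel and 1860 in 2D. Of the 9 risen genes of cholesterol handling 2 passed under the empirical null, and so did Abca1.

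Several genes that feed back on ERK signalling rose. Of 26 ERK feedback and immediate early genes, 6 rose and 2 fell, with a median log2 fold change of 0.50. The receptor pathway inhibitor Spry4 was at 1260 in Matrigel and 378 in 2D, and the ERK phosphatase Dusp6 at 9680 in Matrigel and 4820 in 2D. Dusp5 (log2 0.92 ± 0.25), Dusp4 (0.91 ± 0.24), the ETS factor Etv4 (0.81 ± 0.25) and Spred3 (0.58 ± 0.19) also rose in the authors' deposited table. The phosphatase Dusp1 (-0.67 ± 0.19) and the AP-1 subunit Jun (-0.66 ± 0.18) fell in the authors' deposited table, and Egr1 was at 0.83 ± 0.28 without passing. In the FGF family, the ligand Fgf9 (1470 in Matrigel, 615 in 2D) and the receptors Fgfr4 (4210 in Matrigel, 1990 in 2D) and Fgfr2 (1500 in Matrigel, 843 in 2D) rose. Kit, Pdgfc (-0.92 ± 0.23) and the HGF receptor Met (-0.71 ± 0.20) fell in the authors' deposited table. Under the empirical null, 2 of the 6 risen ERK genes and neither of the fallen ones passed.

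WNT ligands and receptors fell in 5 of 21 cases and none rose. Wnt7a was at 95.4 in Matrigel and 339 in 2D, the receptor Fzd2 at 348 in Matrigel and 793 in 2D, and Wnt9a at 467 in Matrigel and 852 in 2D. Wnt4, a ligand of nephron formation that was scarce here (17.0 in Matrigel, 59.1 in 2D), and Wnt5a (979 in Matrigel, 1590 in 2D) completed the 5. Axin2, a feedback target of beta-catenin, fell to 77.6 in Matrigel, against 184 in 2D, whereas Lgr5, a receptor that amplifies WNT signals, rose to 64.1 in Matrigel, against 23.0 in 2D. The median of the ligand and receptor list was -0.0228.

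TGF-beta and BMP genes fell on the side of ligands and secreted inhibitors. Tgfb2 (244 in Matrigel, 787 in 2D), the activin subunit Inhbb (14.7 in Matrigel, 47.2 in 2D) and the latency protein Ltbp1 (812 in Matrigel, 1570 in 2D) fell, 3 of 12 with none risen. Of 18 BMP ligands, receptors and inhibitors, 3 fell and none rose: Fstl1, the activin trap follistatin Fst (3470 in Matrigel, 11100 in 2D) and Bmp6 (1540 in Matrigel, 2740 in 2D). Of the Id genes, direct BMP targets in many cells that block differentiation factors, 3 rose: the authors' deposited table had Id1 at log2 1.69 ± 0.22, Id2 at 1.09 ± 0.21 and Id4 at 0.97 ± 0.32. Id3 did not pass (0.57 ± 0.26 in the authors' deposited table). SMADs did not pass, with Smad3 at 0.36 ± 0.18 and Smad4 at -0.27 ± 0.16 in the authors' deposited table. In the Notch list, the feedback inhibitor Nrarp (1.20 ± 0.22) and the ligand Dll4 (1.01 ± 0.28) rose in the authors' deposited table, 2 of 13 with none fallen. An antisense gene model covers 79.4% of the exon bases of Nrarp.

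Guidance genes moved both ways, with 5 of 22 risen and 3 fallen. Sema3c (9150 in Matrigel, 5430 in 2D), the plexin receptors Plxnd1 (2700 in Matrigel, 1590 in 2D) and Plxnb1 (2530 in Matrigel, 1650 in 2D), the netrin receptor Unc5b (6590 in Matrigel, 3860 in 2D) and Sema4b (4740 in Matrigel, 3260 in 2D) rose. Plxdc1 (52.9 in Matrigel, 232 in 2D), Sema3b (162 in Matrigel, 368 in 2D) and netrin Ntn1 (log2 -1.11 in the authors' deposited table) fell. In the IGF axis the binding proteins Igfbp4 (419 in Matrigel, 159 in 2D) and Igfbp5 (28600 in Matrigel, 15000 in 2D) rose, and the clearance receptor Igf2r (7530 in Matrigel, 12600 in 2D) fell.

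Matrix genes that fell were mainly collagens and proteases. Of 13 collagens outside the basement membrane, 3 fell and none rose: Col12a1, Col5a2 (18.7 in Matrigel, 67.8 in 2D) and Col5a1 (390 in Matrigel, 743 in 2D). Col1a1 (-0.73 ± 0.31), Col1a2 (0.08 ± 0.10) and Col3a1 (0.08 ± 0.10) did not pass in the authors' deposited table. They belong to the 5 fibroblast genes whose median log2 fold change was 2.67 by the implied levels, so a fall is not shown for them. None of 8 laminin genes passed in the authors' deposited table (DESeq2, with 2 lower at an unadjusted p under 0.05). Among them were the abundant Lama5 (-0.01 ± 0.16) and Lamb1 (-0.32 ± 0.17). With 6.65% of all genes changed, none of 8 does not set the laminins apart. Collagen IV was close to the centre for Col4a1 (0.12 ± 0.16) and Col4a2 (-0.02 ± 0.16), while Col4a5 (-1.13 ± 0.22) and the integrin ligand nephronectin Npnt (-0.68 ± 0.19) fell in the authors' deposited table. Of 15 integrin genes 1 passed, Itga3 (log2 0.74 ± 0.21 in the authors' deposited table), and the common partner Itgb1 was at -0.45 ± 0.17 there without passing. The list of metalloproteases and related genes had 8 of 23 fallen and 3 risen. The aggrecanase-type Adamts1 (5550 in Matrigel, 11800 in 2D), the membrane-anchored Mmp25 (137 in Matrigel, 327 in 2D), the gelatinase Mmp2 (34.9 in Matrigel, 121 in 2D) and Adam12 (15.1 in Matrigel, 38.1 in 2D) fell furthest. Adamts9 (0.79 ± 0.23), Mmp15 (0.59 ± 0.16) and Adamtsl4 (0.67 ± 0.21), an ADAMTS-like gene rather than a protease, rose in the authors' deposited table. The empirical null left 3 of the 8 fallen and none of the 3 risen genes of that list.

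Mesenchymal and actin genes were lower in part. Of 30 mesenchymal genes, 7 fell and 3 rose, with a median log2 fold change of -0.348. Zeb2 (121 in Matrigel, 357 in 2D) and Snai2 (136 in Matrigel, 304 in 2D), factors of epithelial-mesenchymal transition, fell, whereas Twist2 rose to 1800 in Matrigel, against 967 in 2D, with 46.5% of its exon bases under an antisense gene model. Vimentin (Vim) did not pass (-0.51 ± 0.20 in the authors' deposited table). Of 13 stress fibre and smooth muscle type genes, 4 fell and none rose: caldesmon Cald1 (2240 in Matrigel, 6230 in 2D), tropomyosin Tpm1 (11100 in Matrigel, 18600 in 2D), Csrp1 (3570 in Matrigel, 5790 in 2D) and the scarce smooth muscle actin Acta2 (10.2 in Matrigel, 32.1 in 2D). The linkers Pdlim1 (61.5 in Matrigel, 333 in 2D) and Fhl1 (756 in Matrigel, 1680 in 2D) and the GTPase-activating protein Arhgap29 (2190 in Matrigel, 5530 in 2D) fell with them. All 7 fallen actin genes passed under the empirical null. None of 19 YAP/TAZ and TEAD targets passed in the authors' deposited table (DESeq2, with 1 higher and 1 lower at an unadjusted p under 0.05). Cyr61 was at -0.10 ± 0.26 there, Ctgf at -0.17 ± 0.30 and Ankrd1 at -0.14 ± 0.26. With 6.65% of all genes changed, none of 19 does not set this list apart.

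Epithelial junction genes changed in both directions, with 9 of 87 risen and 5 fallen and a median of 0.0797. E-cadherin (Cdh1) was at 11600 in Matrigel and 5990 in 2D, and Epcam at 6300 in Matrigel and 3350 in 2D. N-cadherin (Cdh2), at 896 in Matrigel and 1550 in 2D, the desmosomal Dsc2, at 73.8 in Matrigel and 171 in 2D, and Cdh6 fell. Claudins split: Cldn7 rose (11000 in Matrigel, 6250 in 2D), Cldn1 fell, and the proximal tubule pore claudin Cldn2 did not pass (log2 0.33 ± 0.23 in the authors' deposited table). The keratins Krt5 (4880 in Matrigel, 1310 in 2D) and Krt20 (17000 in Matrigel, 9070 in 2D) rose, while Krt18 (0.08 ± 0.17) and Krt19 (0.07 ± 0.19) did not pass in the authors' deposited table. Among epithelial regulators the protease inhibitors Spint2 (0.68 ± 0.17) and Spint1 (0.59 ± 0.18) and the transcription factor Ehf (0.95 ± 0.29) rose, and Sox4 (-0.58 ± 0.18) fell, in the authors' deposited table. An antisense gene model covers 54.6% of the exon bases of Sox4.

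Stress pathways were split. On the amino acid side of the ATF4 response, 9 of 26 genes rose and none fell, with a median of 0.429. They were mostly enzymes and carriers of serine, glutamine and cysteine supply: Cth (18400 in Matrigel, 8290 in 2D), Psph (10100 in Matrigel, 5410 in 2D), Psat1 (31900 in Matrigel, 18500 in 2D), Phgdh (46300 in Matrigel, 30000 in 2D), Shmt2 (26100 in Matrigel, 16300 in 2D), Asns (25100 in Matrigel, 15700 in 2D) and the glutamine carrier Slc1a5 (7330 in Matrigel, 4210 in 2D). The stress effectors Ddit3 (log2 -0.47 ± 0.25) and Trib3 (0.21 ± 0.28) and Atf4 itself (0.47 ± 0.24) did not pass in the authors' deposited table. Of the 9, 2 passed under the empirical null. An antisense gene model covers 26.1% of the exon bases of Psph. None of 15 chaperones and disulfide enzymes of the endoplasmic reticulum passed in the authors' deposited table (DESeq2; 4 were higher at an unadjusted p under 0.05), with Hspa5 at -0.20 ± 0.19, although Herpud1 (0.96 ± 0.16) and Xbp1 (0.56 ± 0.16) rose. None of 17 heat shock chaperones passed there (DESeq2, with 2 lower at an unadjusted p under 0.05). With 6.65% of all genes changed, none in lists of 15 and 17 genes does not set either list apart.

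Few genes of energy metabolism passed. With 6.65% of all genes changed, lists of 22 to 34 genes would hold few changed genes in any case. None of 22 glycolysis and lactate genes passed in the authors' deposited table (DESeq2; 1 was higher and 3 lower at an unadjusted p under 0.05), with Gapdh at -0.26 ± 0.18 and Pkm at -0.17 ± 0.21. Of 34 respiratory chain and ATP synthase genes none passed there (DESeq2; 3 were higher at an unadjusted p under 0.05), and Atp5b was at 0.14 ± 0.16. None of 22 ribosome biogenesis genes passed either (DESeq2; 1 was lower at an unadjusted p under 0.05). Of 18 hypoxia response genes, Epas1 rose (156 in Matrigel, 84.8 in 2D) and 3 fell: the peptide adrenomedullin Adm (100 in Matrigel, 348 in 2D), the oxygen sensor Egln3 (140 in Matrigel, 313 in 2D) and the glycolysis regulator Pfkfb3 (3550 in Matrigel, 6150 in 2D).

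Changes were set against those in the other 3 microenvironments, whose tables use the same 3 libraries in 2D, by testing the difference of the log2 fold changes (Matrigel minus the other, two-sided normal test, Benjamini-Hochberg). Against fibrin 161 of 13804 genes differed (1.17%), 62 higher and 99 lower in Matrigel. Against collagen I 66 of 13763 did (0.480%), 58 higher and 8 lower in Matrigel. Against the printed cultures 89 of 13841 did (0.643%), 21 higher and 68 lower in Matrigel. The NRF2 target Nqo1 was at log2 1.94 in Matrigel, 1.12 in fibrin, 2.39 in collagen I and 1.40 in the printed cultures in the authors' deposited tables, with adjusted p of 0.23 or more for each difference. These tests count the spread of the shared libraries in 2D more than once, and with that shared variance removed 509, 390 and 364 genes differed from fibrin, collagen I and the printed cultures. Nqo1 then differed from fibrin (adjusted p = 0.02).

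In this test 5 genes differed from all 3 other microenvironments, out of 13684 tested against each. With the shared 2D variance removed 35 did, 23 higher and 12 lower in Matrigel, and the 5 were among them. Gstm2 (chromosome 3, 107981702 to 107986420) was at log2 2.16 ± 0.22 in Matrigel, 0.61 ± 0.26 in fibrin, -0.25 ± 0.29 in collagen I and 0.75 ± 0.31 in the printed cultures in the authors' deposited tables. The differences from Matrigel were 1.55, 2.40 and 1.41, with adjusted p of 0.0017, 7.1e-08 and 0.038. Cyp4a10 (chromosome 4, 115518287 to 115533649) was at 2.07 ± 0.26 in Matrigel and between -0.20 and 0.25 elsewhere in the authors' deposited tables. Its neighbour Cyp4a31 (chromosome 4, 115563627 to 115579015) was at 1.43 ± 0.23 in Matrigel and between -0.39 and -0.11 elsewhere in the authors' deposited tables. Both encode fatty acid hydroxylases of 1 family and are close copies, so the split of reads between them is uncertain. Sardh, a mitochondrial enzyme of sarcosine breakdown, was at 3510 in Matrigel and 1670 in 2D, log2 0.99 ± 0.17, and between -0.38 and -0.10 elsewhere in the authors' deposited tables. Klhl13, a substrate adaptor of a ubiquitin ligase, fell to 934 in Matrigel, against 2290 in 2D, and was at 0.27 to 0.32 elsewhere in the authors' deposited tables.

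**Figure D5:**
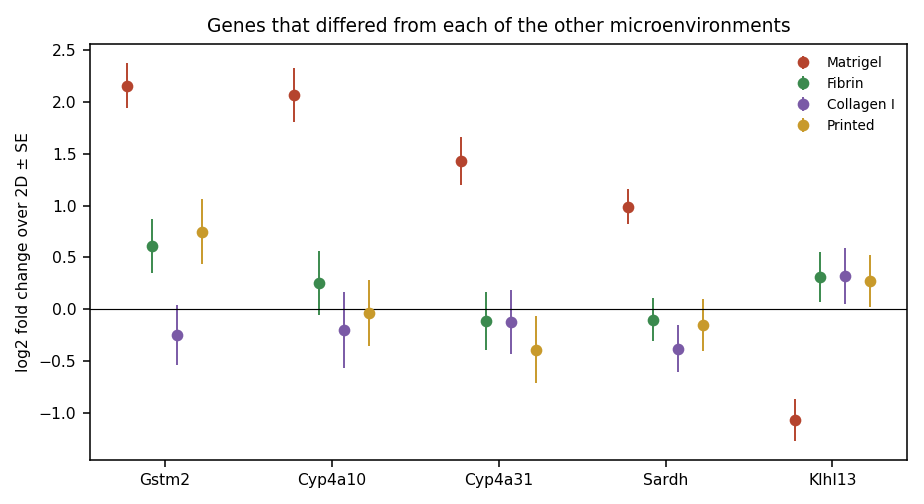
Log2 fold change over 2D with its standard error in Matrigel, fibrin, collagen I and printed cultures for the 5 genes whose change in Matrigel differed from that in each of the other 3. Gstm2, Cyp4a10, Cyp4a31 and Sardh are higher in Matrigel, at 2.16, 2.07, 1.43 and 0.99, and Klhl13 is lower, at -1.07.

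Several genes differed from some of the microenvironments, some of them with the opposite sign and others in size alone. The ATP-gated channel P2rx3 rose in Matrigel (2880 in Matrigel, 902 in 2D; log2 1.51 ± 0.18), while the authors' deposited tables had it at -2.55 in fibrin, -2.50 in collagen I and 0.91 in the printed cultures. Serpinf1, a secreted anti-angiogenic serpin, was at 1.84 in Matrigel and -0.91 in collagen I in the authors' deposited tables (adjusted p of the difference = 1.6e-05). E-cadherin (Cdh1) was at 0.90 in Matrigel, -0.12 ± 0.21 in fibrin and -0.30 ± 0.20 in collagen I in the authors' deposited tables. Both differences passed in the difference test (adjusted p = 0.013 for fibrin, adjusted p = 0.0018 for collagen I). In the printed cultures Cdh1 was at 0.43 there, and that difference did not pass. Abca1 was at -1.57 in Matrigel and 0.80 in the printed cultures in the authors' deposited tables (adjusted p of the difference = 3.6e-12). Fn1 and Cldn1 were lower in Matrigel than in the printed cultures, with differences of -1.74 for Fn1 (adjusted p = 3e-06) and -2.05 for Cldn1 (adjusted p = 4.5e-07).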

How the data were processed

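RNA sequencing of 15 libraries of iRECs gave 1 table per microenvironment against 2D, and the Matrigel table is the one described. The submitters' processing notes name the mm10 genome, DESeq2 1.22.1 and featureCounts 1.6.3, besides STAR 2.6.0b-1, Trim Galore 0.4.3 and FastQC 0.72. Not given in the sources used here were the annotation, the strand setting and any passage term. The deposited base mean is a signal value, the authors' mean of size-factor normalized read counts over the libraries fitted. The deposited log2 fold change and its standard error are from the authors' DESeq2 fit, and the Wald score deposited by the authors is their quotient. Each deposited p-value is the authors' two-sided Wald p, with a Benjamini-Hochberg adjusted p beside it.

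From these tables, with Python 3.11.15, numpy 2.4.6, pandas 2.3.3, scipy 1.17.1 and matplotlib 3.10.9, adjusted p-values were recomputed and matched those deposited within 3.23e-15. The level in 2D was taken as the median over the other 3 tables of the level that base mean and fold change imply, scaled to the Matrigel table by the median gene. The level in Matrigel was 2 times the base mean minus the level in 2D. For 45 of the 232 changed genes named by the rule, the implied log2 ratio differed from the deposited fold change by more than 1 standard error. Differences between microenvironments were tested by dividing the difference of both fold changes by the combined standard error, which leaves in the shared 2D variance. The empirical null took its centre and spread from the quartiles of the Wald scores. The calculations were tested on simulated data. Of the gene IDs, 93.0% were in the RefSeq table. The files held 0 columns of values per sample, so depth per library is unknown.

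Gene lists (22, in 87 groups by role) and genes were chosen with earlier results of these data known. Named were the 15 highest and 15 lowest changed genes of base mean 100 or more, the 5 highest and 5 lowest of 10 to 100, the 15 most abundant changed genes, per group up to 4 changed genes and 2 that did not pass, and the introduced factors. Results for some genes are not reported here. Genes named beyond these, among them the 5 that differed from every other microenvironment, were chosen after their values were seen. Exon overlaps between gene models were taken from the GENCODE M21 annotation (GRCm38).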

Additional observations from a re-analysis of the deposited data

How the results depend on the processing

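No paired analysis was possible because the deposited tables hold fitted values per gene and none per library, and for the same reason no library could be left out and no other normalization of the counts or count model could be run. Against the 928 changed genes, 589 higher and 339 lower, an adjusted p under 0.01 left 539 (341 higher, 198 lower), an added fold threshold of 1 log2 unit left 323 (189 higher, 134 lower), the empirical null left 373 (239 higher, 134 lower), and the same spread centred at 0 left 372 (235 higher, 137 lower). Members of all lists together numbered 181 risen and 74 fallen, and the same alternatives left, in both directions together, 156, 90, 114 and 112. Of the 232 changed genes named by the rule, 97 were lost under the empirical null. Removing the shared 2D variance raised the genes that differed to 509 from fibrin, 390 from collagen I and 364 from the printed cultures, against 161, 66 and 89, and the genes that differed from all 3 to 35, against 5, an alternative chosen after seeing the data. The causes were not tested. No changed gene named by the rule reversed its direction under the empirical null, the centring or the implied levels, but the implied change of 6 named genes that did not pass had the other sign, Mki67 among them. The share of higher genes stayed near the 63.5% of the main result when fold changes were centred on the median gene (60.8%).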

Other observations

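Inflammatory genes moved in both directions, with 5 of 87 risen and 5 fallen, against 4.22% risen and 2.43% fallen over all genes. No result about inflammation as a group is drawn from these counts. The alarmin Il33 was at 2820 in Matrigel and 954 in 2D, while its receptor Il1rl1 was at 493 in Matrigel and 3150 in 2D. The deposited change of Il1rl1 was smaller than these implied levels give, at log2 -1.51 ± 0.29 in the authors' deposited table. The interleukin receptor Il6ra and the costimulatory receptor Tnfrsf9 fell too, the second by 0.76 on the log2 scale in the authors' deposited table. In the complement list, Cfb (log2 1.46 ± 0.27) and the lipopolysaccharide-binding protein Lbp (1.09 ± 0.29) rose in the authors' deposited table, whereas Hc fell. Another gene model overlaps 81.6% of the exon bases of Cfb. Of 14 tubular injury and progenitor markers, 2 rose and none fell, against 4.22% risen over all genes. Krt20 (0.88 ± 0.20) and Dcdc2a (0.84 ± 0.20) rose in the authors' deposited table, and both passed under the empirical null. Havcr1 (-0.27 ± 0.24), Lcn2 (-0.07 ± 0.31) and Spp1 (0.63 ± 0.27) did not pass in the authors' deposited table. The macrophage receptor gene Csf1r fell to 184 in Matrigel, against 507 in 2D, beside the summed immune markers given earlier, and its part in these results was not tested.

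Of 31 cystic kidney and ciliary genes, 3 fell and none rose, and 8 were lower at an unadjusted p under 0.05. The 3 were Pkhd1l1 (log2 -0.92 ± 0.28), the RNA-binding Bicc1 (-0.73 ± 0.18) and the fibrocystin gene Pkhd1 (-0.53 ± 0.16) in the authors' deposited table, and none of them passed under the empirical null. Of 20 Hox genes, Hoxb13 (0.91 ± 0.19) and Hoxb5 (0.63 ± 0.18) rose in the authors' deposited table. The osmolyte transporter Slc5a3 (1.18 ± 0.24) and the sodium pump subunit Atp1b1 (0.77 ± 0.22) rose there, 2 of 18 genes of ion and water handling. Over all genes 4.22% rose, so counts of 2 in 20 and 2 in 18 do not set these lists apart. In the list of distal tubule and collecting duct genes, the kinase Sgk1 rose and the sodium channel subunit Scnn1g fell, by 1.14 on the log2 scale, in the authors' deposited table.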
